A study of Mus musculus with 6 samples.

Results

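The levels of 10 genes that mark cerebellar granule neurons and their synapses were examined by bulk RNA sequencing in WT and KIKO mice, out of 31053 genes in the count table. The genes were given as a list of names with no threshold on a measured value, and all 10 had a row in the table and passed the filter on low counts. They are the transcription factor genes *Neurod1*, *Zic1*, *Zic2*, *Pax6* and *Etv1*, the cerebellin genes *Cbln1* and *Cbln3*, and the presynaptic genes *Slc17a7*, *Snap25* and *Syt1*. KIKO (knock-in knock-out) mice are a model of Friedreich's ataxia, and WT littermates were C57BL/6. The 5 libraries analysed were WT replicates 1 and 2 and KIKO replicates 1, 2 and 3, each labelled as cerebellum, and a WT sample numbered 3 was not analysed here. The labels give no age, sex, treatment or sorting. The paper describes bulk RNA sequencing of CD45+/CD11b+ cells sorted with magnetic beads from the cerebellum of 6-mo-old mice. It also reports transcriptomes of cultured cerebellar microglia given butyrate and of CD11b+ cells from mice fed butyrate. The labels do not tell which of these experiments the libraries belong to.

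Granule neurons are the most numerous neurons of the cerebellum. They arise from a precursor layer that uses the Zic factors and Pax6, switch on *Neurod1* as they leave the cell cycle, and send parallel fibres to the dendrites of Purkinje neurons. At these synapses vesicles are filled with glutamate by VGLUT1, the product of *Slc17a7*, and fused with the membrane by a complex that includes SNAP25 and the calcium sensor synaptotagmin 1. Secreted cerebellin 1 joins presynaptic neurexins to the delta glutamate receptor of the Purkinje dendrite.

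The libraries held between 1013107 and 1351339 counts, and 3 counts, the smallest signal considered here, stood for 2.28 to 3.04 normalized CPM (CPM, counts per 1000000 counts of a library, after TMM scaling), a floor that covers counting error only. The 10 genes together took 0.25% to 0.389% of the counts of a library. KIKO replicate 2 stood apart from the other libraries. Its log2 CPM correlated with theirs at r from 0.672 to 0.747 across tested genes, compared with 0.884 to 0.931 among the other libraries. Genes are not independent replicates, and these r are given as a description. Fold changes of the 10 genes that turned with KIKO replicate 2 are therefore also given without it.

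The label of granule neurons was checked against other genes of these cells. *Gabra6*, the GABA-A receptor subunit that is nearly restricted to granule neurons in the cerebellum, had 129.7 to 252 normalized CPM in the 5 libraries, and *Gabrd*, its partner in extrasynaptic receptors, 114 to 171. *Slc17a6*, which encodes the VGLUT2 transporter, was counted 5 to 15 times per library, given here as a value and not as part of the check. Markers of microglia, the cells named by the paper, were present as well, with a summed level of 10 markers between 4517 and 11760 normalized CPM. Transcripts of granule neurons were thus counted in each library next to those of microglia, and whether the libraries hold sorted cells or whole tissue is not stated in the labels.

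Upstream sequences are shown for *Zic1* and *Slc17a7*, because the first kept its level in KIKO replicate 2, the library described above, and the second fell most there among the members that were still counted. They are RefSeq sequences of GRCm38.p6, 5′ to 3′ on the strand of the gene, taken from the 250 bases before the annotated start without annotated exons. Capitals mark GGGCGG, the core of the GC box bound by Sp1 and related factors, or CCGCCC, the same word on the other strand. *Zic1* (208 bases, minus strand, chr9:91365811-91366018) and *Slc17a7* (250 bases, plus strand, chr7:45163671-45163920) read:
Zic1: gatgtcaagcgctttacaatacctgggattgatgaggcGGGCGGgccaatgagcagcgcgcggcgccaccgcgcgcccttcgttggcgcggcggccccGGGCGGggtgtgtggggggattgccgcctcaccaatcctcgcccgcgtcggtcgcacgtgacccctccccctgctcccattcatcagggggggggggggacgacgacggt
Slc17a7: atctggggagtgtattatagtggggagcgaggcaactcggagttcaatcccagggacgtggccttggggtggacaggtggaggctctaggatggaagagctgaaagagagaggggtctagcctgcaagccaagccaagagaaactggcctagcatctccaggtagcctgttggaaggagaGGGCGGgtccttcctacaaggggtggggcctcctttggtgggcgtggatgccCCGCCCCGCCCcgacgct
Of the 10 genes, 7 had an upstream window in the reference, 10 windows in all, and *Zic2*, *Cbln1* and *Snap25* had none. GGGCGG, searched on both strands, was in 4 of the 10 windows of 250 bases, exons included, those of *Neurod1*, *Zic1* and *Slc17a7* and one of *Syt1*, compared with 32.7% of 32851 such windows of all genes. The *Syt1* match reached into an annotated exon, and outside exons the word was in 3 windows. The E-boxes CAGATG (both strands) and CAGCTG, words that NEUROD1 and related factors bind, were in 1 window each, of *Etv1* (in an exon) and *Syt1*, compared with 14.4% and 13% of all windows. These matches describe letters and not bound sites.

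Among the transcription factors, *Neurod1* (ENSMUSG00000034701, GRCm38 chromosome 2, 79452521 to 79456751) drives the differentiation of granule neurons. Its level was 469 and 306 normalized CPM in WT replicates 1 and 2, and 304, 183 and 321 in KIKO replicates 1, 2 and 3. The highest value was WT and the lowest KIKO, and KIKO replicate 3 lay above WT replicate 2, so the groups overlapped. The KIKO mean of 269 ± 75.2 (SD, n = 3) compared with a WT mean of 388 ± 115 (SD, n = 2). In edgeR's quasi-likelihood test across all genes, the log2 fold change of KIKO over WT was −0.53 (standard error 0.41, adjusted p = 1), with a 95% interval from −1.46 to 0.41. This was the smallest p among the 10 genes, 0.235 before adjustment. Its exons share 201 bases with *Cerkl* on the same strand and 154 bases with the antisense gene *Gm26755*, so its counts are uncertain where reads fall in these bases.

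*Zic1* (ENSMUSG00000032368, chromosome 9, 91358058 to 91365810), a zinc finger gene of granule cell precursors that mature granule neurons keep on, varied least. It had 695 and 617 normalized CPM in WT replicates 1 and 2, and 627, 645 and 539 in KIKO replicates 1, 2 and 3. Its coefficient of variation over the 5 libraries was 9.07%, compared with a median of 28.5% over the 1960 tested genes with a mean of at least 100 normalized CPM. The log2 fold change was −0.12 (standard error 0.36, 95% interval −0.95 to 0.71). *Zic1* shares 60 exonic bases with *Zic4* on the opposite strand. *Zic2* (ENSMUSG00000061524, chromosome 14, 122475435 to 122479852), its paralogue, was the least abundant member, with 40 and 32 counts in the WT libraries and 44, 0 and 31 counts in KIKO replicates 1, 2 and 3. The value of 0 in KIKO replicate 2 corresponds to at most 2.32 normalized CPM at the floor of 3 counts in that library, at least 10.5-fold lower than the lowest of the other libraries (24.3). The other KIKO libraries, at 34.7 and 31.5 normalized CPM, lay between both WT libraries, at 24.3 and 39.8. The fitted log2 fold change of −0.54 (standard error 1.12, 95% interval −3.10 to 2.02) rested on that library, and it was 0.06 (standard error 0.42) without it.

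*Pax6* (ENSMUSG00000027168, chromosome 2, 105668900 to 105697364), a paired-box gene of granule cell precursors, had 247 and 187 normalized CPM in WT and 265, 78.05 and 170.5 in KIKO replicates 1, 2 and 3. The highest and the lowest value were both of KIKO libraries. Its log2 fold change was −0.34 (standard error 0.51, 95% interval −1.51 to 0.82) and 0.01 (standard error 0.27) without KIKO replicate 2. *Etv1* (ENSMUSG00000004151, chromosome 12, 38779380 to 38870484), an ETS factor gene linked to the maturation of granule neurons, had 289 and 286 normalized CPM in WT and 401, 113 and 364 in KIKO replicates 1, 2 and 3. The WT values lay between those of the KIKO libraries, with KIKO replicates 1 and 3 above and KIKO replicate 2 below. Its log2 fold change was 0.03 (standard error 0.54, 95% interval −1.20 to 1.26), and 0.41 (standard error 0.25) without KIKO replicate 2, with an unadjusted p = 0.11 and an adjusted p = 0.707 in edgeR's test.

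**Figure D1:**
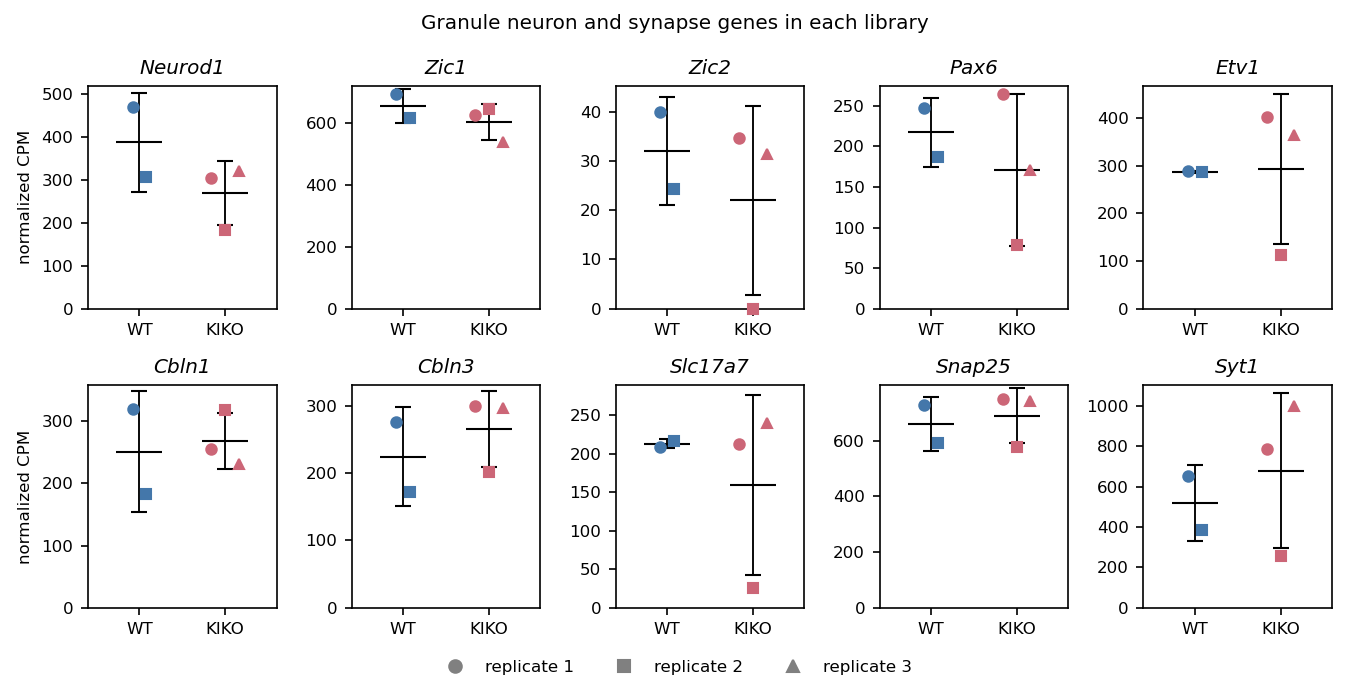
Normalized CPM (vertical axes, from 0) of the 10 genes in WT and KIKO libraries, with symbols for the replicate number and bars for the mean ± SD (n = 2 WT, n = 3 KIKO). WT and KIKO values overlap for each gene, and KIKO replicate 2 (red square) is the lowest point for *Neurod1*, *Zic2*, *Pax6*, *Etv1*, *Slc17a7*, *Snap25* and *Syt1*.

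Of the cerebellins, *Cbln1* (ENSMUSG00000031654, chromosome 8, 87468405 to 87472609) encodes the organizer of the synapse between parallel fibres and Purkinje neurons. It had 319 and 182 normalized CPM in WT and 255, 317 and 230.4 in KIKO replicates 1, 2 and 3. The KIKO values all lay between both WT values. Its log2 fold change was 0.10 (standard error 0.40, 95% interval −0.81 to 1.01). *Cbln3* (ENSMUSG00000040380, chromosome 14, 55878913 to 55884392), whose product is secreted in complexes with cerebellin 1, had 276 and 172 normalized CPM in WT and 299.7, 201 and 296 in KIKO replicates 1, 2 and 3. The lowest value was of WT replicate 2 for both genes. The log2 fold change of *Cbln3* was 0.25 (standard error 0.40, 95% interval −0.66 to 1.16). The other cerebellin genes were near or at 0, with *Cbln2* counted 0 to 5 times per library and *Cbln4* 0 times in each, and so neither could be tested.

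Of the presynaptic genes, *Slc17a7* (ENSMUSG00000070570, chromosome 7, 45163949 to 45176142) had 209 and 217 normalized CPM in WT and 213, 25.5 and 239.5 in KIKO replicates 1, 2 and 3. The values of the other libraries lay close together, between 209 and 239.5, whereas KIKO replicate 2 held 33 counts and 11.6% of their mean. The log2 fold change was −0.42 (standard error 0.75, 95% interval −2.13 to 1.28) with all libraries and 0.08 (standard error 0.25, 95% interval −0.44 to 0.60) without KIKO replicate 2. *Snap25* (ENSMUSG00000027273, chromosome 2, 136713453 to 136782428), which encodes a membrane SNARE protein of all neurons, had 729 and 592 normalized CPM in WT and 750.0, 576.5 and 743 in KIKO replicates 1, 2 and 3. Its coefficient of variation was 12.7%, and its log2 fold change was 0.06 (standard error 0.38, 95% interval −0.80 to 0.93).

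*Syt1* (ENSMUSG00000035864, chromosome 10, 108497650 to 109010982), the gene of the calcium sensor of fast transmitter release, varied most among the libraries other than KIKO replicate 2. It had 650.5 and 386 normalized CPM in WT replicates 1 and 2, and 785, 256.5 and 997.5 in KIKO replicates 1, 2 and 3. KIKO replicates 1 and 3 lay above both WT libraries and KIKO replicate 2 below them. The KIKO mean of 680 ± 382 (SD, n = 3) compared with a WT mean of 518 ± 187 (SD, n = 2), and the log2 fold change was 0.39 (standard error 0.59, 95% interval −0.96 to 1.74, adjusted p = 1 in edgeR's test). Without KIKO replicate 2, the log2 fold change of *Syt1* was 0.78 (standard error 0.27, 95% interval 0.22 to 1.34), with an unadjusted p = 0.00801 and an adjusted p = 0.427 in edgeR's test. It then passed both thresholds that the paper used (an unadjusted p under 0.05 together with an absolute log2 fold change over 0.75), as 6.45% of 10373 genes did in that fit, 2.94% in the direction of higher levels in KIKO. At an adjusted p under 0.05, which *Syt1* did not reach, 0.0482% of the genes were called.

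Read together, 0 of the 10 genes passed both thresholds between KIKO and WT mice, compared with 1.2% of the 10889 genes tested (0.716% higher and 0.487% lower in KIKO), and 0 had an adjusted p under 0.05, as for all genes (0%). None of the 10 had an unadjusted p under 0.05 in edgeR's test, where 131 of all genes did, and DESeq2's Wald test called 0 of the 10 as well. In 0 of the 10 genes did the WT and KIKO values lie apart, compared with 16.7% of the genes tested (8.2% higher and 8.51% lower in KIKO). With the replicate number as a block, 0 of the 10 and 2.49% of all genes passed both thresholds. Of the 10 fold changes, 5 were above 0 and 5 below, with a median of −0.05 on the log2 scale, beside 0.02 over all genes tested, of which 51.9% were above 0. The intervals of the 10 genes reached −0.66 or lower and 0.41 or higher, so that a change of 0.75 in at least one direction lay inside the interval of each gene. With 2 against 3 libraries, the smallest p that exact permutation could reach was 0.1. In bulk libraries, a lower number of granule neurons and less RNA per neuron cannot be told apart. The labels do not say that the libraries came from separate mice, and the p-values measure the spread between these libraries.

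**Figure D2:**
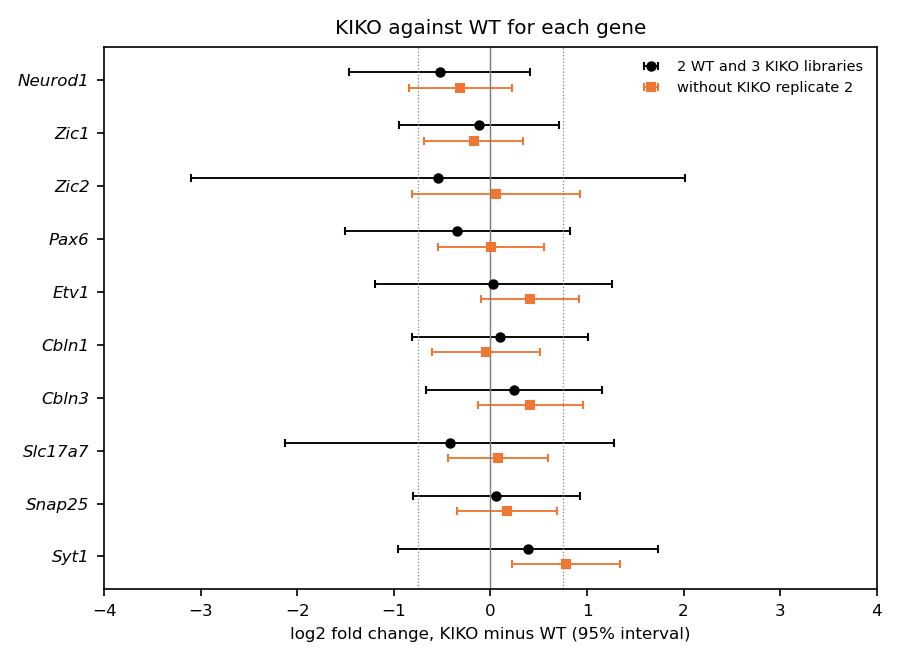
Log2 fold change of KIKO over WT for each gene (horizontal axis) with its 95% interval from edgeR's model, for all 5 libraries (black) and without KIKO replicate 2 (orange), with dotted lines at ±0.75. Each black interval includes 0, and of the orange ones only that of *Syt1*, 0.22 to 1.34, does not.

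Without KIKO replicate 2, the common biological coefficient of variation of the fit fell to 0.238 from 0.468 with all libraries. Of the 10 genes, 7 then had a log2 fold change above 0, and 1, *Syt1*, passed both thresholds. The median of the 10 was 0.07, beside −0.01 over all genes tested in that fit. The WT and KIKO values lay apart for 4 genes, close to the share of 38.8% of the genes tested in that fit, both directions together. These were *Etv1*, *Cbln3*, *Snap25* and *Syt1*, all higher in KIKO, and the share over all genes in that direction was not counted. For *Snap25* the log2 fold change was 0.17 (standard error 0.25, 95% interval −0.34 to 0.69), and for *Cbln3* 0.41 (standard error 0.26, 95% interval −0.13 to 0.95). *Neurod1* and *Zic1* stayed below 0, at −0.31 (standard error 0.26) and −0.17 (standard error 0.25), and *Cbln1* was at −0.04 (standard error 0.27).

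The summed level of the 10 genes was 3924 and 2970 normalized CPM in WT replicates 1 and 2, and 3935, 2395 and 3932 in KIKO replicates 1, 2 and 3. WT replicate 1 and KIKO replicates 1 and 3 were nearly level, and the libraries numbered 2 of both genotypes were lower. In KIKO replicate 2, the genes did not move in parallel. *Zic1* was at 104% of the mean of the other libraries, *Cbln1* at 129%, *Snap25* at 81.9% and *Cbln3* at 77%. *Neurod1* was at 52.3%, *Syt1* at 36.4%, *Pax6* at 35.9%, *Etv1* at 33.7%, *Slc17a7* at 11.6% and *Zic2* at 0%. Thus 7 of the 10 genes lay below the range of the other libraries, 3 within it and 0 above it, where 37.1% of all tested genes lay below and 33.9% above. These comparisons describe 1 library, were chosen after its values were seen and have no replicate.

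Other genes also had 0 counts in KIKO replicate 2. Of 6246 tested genes with at least 20 counts in each other library, 51 (0.817%) had 0 counts there, and the same measure gave 0 genes in each of the other libraries. At least 1 count was found for 12724 genes in KIKO replicate 2, compared with 13729 to 14737 in the others. Markers of other cell types did not all move alike in this library. Of all tested genes, 33.9% lay above the range of the other libraries and 37.1% below it. Of 10 microglia markers, 8 lay above that range and 0 below it. Their summed level was 5111 to 6602 normalized CPM in WT and 4517 to 11760 in KIKO libraries. Of 6 oligodendrocyte markers, 4 lay above that range and 1 (*Mag*) below it. Their sums were 5179 to 11840 in WT and 4540 to 18860 in KIKO libraries. Of 5 choroid plexus markers, 3 lay above it and 0 below it, with sums of 10640 to 11700 and 6633 to 14160. No microglia, oligodendrocyte or choroid plexus marker was at 0 in any library. Some meningeal, astrocyte and inhibitory neuron markers were at 0 in at least 1 library, of WT as well as of KIKO. Of 7 Purkinje markers, 0 lay above the range and 2 below it. Of 5 astrocyte and 5 endothelial markers tested, 2 of each list lay above it and 1 below it. Of 3 meningeal and 3 unipolar brush cell markers tested, 2 of each list lay above it and 1 below it. Of 4 inhibitory neuron markers tested, 2 lay above it and 0 below it. The part of cell mixture and of library detection in the lower values of KIKO replicate 2 was not tested.

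**Figure D3:**
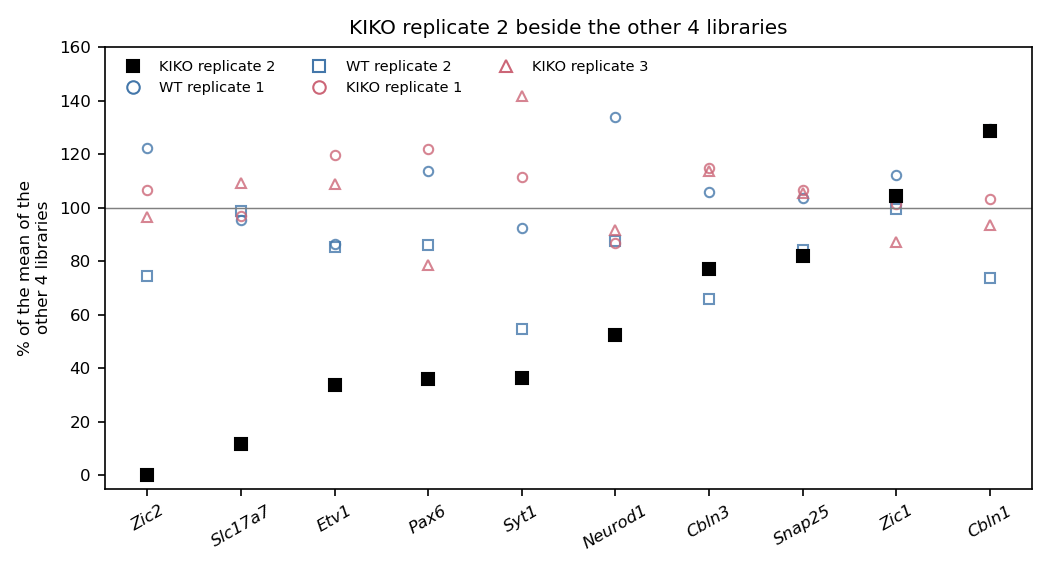
Level of each gene in each library as a percent of the mean of the 4 libraries other than KIKO replicate 2 (vertical axis), with KIKO replicate 2 as black squares. KIKO replicate 2 runs from 0% for *Zic2* and 11.6% for *Slc17a7* to 129% for *Cbln1*.

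Across the other libraries, the coefficient of variation was 6.2% for *Slc17a7*, 10.3% for *Zic1*, 10.6% for *Snap25* and 17.1% for *Etv1*. It was between 20% and 23.1% for *Zic2*, *Pax6*, *Neurod1*, *Cbln1* and *Cbln3*, and 36.3% for *Syt1*. The median over the 1960 genes with a mean of at least 100 normalized CPM was 17.2%. *Slc17a7* was thus the steadiest member without KIKO replicate 2 and, at 48.5%, among the 3 most variable ones with it.

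Levels were compared between genes as the mean normalized CPM per kilobase of exon. On this scale the order was *Neurod1* (116), *Zic1* (110), *Snap25* (99.9), *Cbln1* (85.8), *Syt1* (73.8), *Cbln3* (51.2), *Slc17a7* (33.5), *Etv1* (21.9), *Pax6* (16.2) and *Zic2* (9.05). The ranges over the 5 libraries of each pair of neighbours in this order overlapped, as for *Neurod1* (67.1 to 172) and *Zic1* (94.6 to 122). Without KIKO replicate 2, *Syt1* (84.5) and *Cbln1* (81.2) changed places and the order was otherwise the same. The paper names a digital mRNA-seq service and the labels a stranded kit, and where reads come only from the 3′ ends of transcripts, as in some digital protocols, division by length is not a fitting scale.

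The list of other granule neuron genes held 26 genes, of which 26 were tested and 0 passed both thresholds in either direction. Its median log2 fold change was −0.12, with 11 genes above 0 and 15 below, and without KIKO replicate 2 it was 0.06, with 17 above 0 and 9 below, beside −0.01 over all genes tested in that fit. Its most abundant genes were *Rbfox3*, the gene of the neuronal nuclear antigen NeuN, *Grin2c*, a glutamate receptor subunit gene of granule neurons, and *Nfib*, a factor of granule neuron maturation. *Rbfox3* had 1462 and 805 normalized CPM in WT and 1339, 422 and 1479 in KIKO replicates 1, 2 and 3. KIKO replicate 1 lay between the WT values, KIKO replicate 3 just above them and KIKO replicate 2 below them. *Grin2c* had 883 and 967 normalized CPM in WT and 722, 554 and 672 in KIKO libraries, with no overlap between the groups. Its log2 fold change was −0.51 (standard error 0.37), with an adjusted p = 1 in edgeR's test. Without KIKO replicate 2, its log2 fold change was −0.41 (standard error 0.25). The groups lay apart for 4 of the 26 genes of this list, both directions together. The share over all genes tested was 16.7% (8.51% lower in KIKO). *Nfib* had 654 and 567 in WT and 649, 217 and 619 in KIKO libraries.

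The list of the presynaptic release machinery held 42 genes, of which 39 were tested and 0 passed both thresholds. The median log2 fold change was 0.00, with 20 genes above 0 and 19 below. Without KIKO replicate 2 it was 0.24 over 38 genes, with 27 above 0 and 11 below. The median over all genes tested in that fit was −0.01, and the share of all genes above 0 there was not counted. The most abundant genes were *Cacna1a*, the P/Q-type calcium channel gene (1728 and 1210 normalized CPM in WT; 1834, 1317 and 1904 in KIKO), *Pclo*, the gene of the active zone scaffold piccolo (1755 and 1148; 1333, 262 and 1175), and *Syt7*, another synaptotagmin gene (803 and 483; 807, 447 and 758). KIKO replicate 2 was the lowest library for *Pclo* and *Syt7*, and lay above WT replicate 2 for *Cacna1a*. Without KIKO replicate 2, 2 of the 38 genes passed both thresholds, where 6.45% of all genes did. They were *Napb*, which encodes a SNAP cofactor that helps to recycle SNARE complexes (log2 fold change 0.81, standard error 0.27, with edgeR's adjusted p = 0.404), and *Syt5*, lower in KIKO (log2 fold change −2.45, standard error 0.93, adjusted p = 0.489), which was counted 16 times or fewer in each of the libraries of that fit. *Napb* had 406 and 243 normalized CPM in WT and 547, 289.8 and 592 in KIKO replicates 1, 2 and 3. *Syt5* had 15.94 and 9.102 in WT and 3.155, 20.86 and 1.015 in KIKO replicates 1, 2 and 3, so the library left out held its highest value. With all libraries, the log2 fold change of *Syt5* was −0.55 (standard error 1.11), and the groups overlapped.

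The partners of the cerebellins were the 7 genes of the last list, of which 4 were tested and 0 passed both thresholds. Among them, *Nrxn2* (930.4 and 937.5 normalized CPM in WT) and *Nrxn3* (1186 and 654), which encode presynaptic neurexins, had log2 fold changes of −0.08 and −0.10, with standard errors of 0.38 and 0.69. In KIKO replicates 1, 2 and 3, *Nrxn2* had 1035, 758 and 852 and *Nrxn3* 1226, 215 and 1137 normalized CPM. The WT values of both genes lay within the range of the KIKO libraries. Without KIKO replicate 2, the log2 fold changes were 0.01 (standard error 0.26) for *Nrxn2* and 0.36 (standard error 0.28) for *Nrxn3*. The 4 tested genes lay below the range of the other libraries in KIKO replicate 2, as did 15 of 26 other granule neuron genes, with 5 above it, and 18 of 39 genes of the release machinery (46.2%), with 8 above it, beside 37.1% of all genes below and 33.9% above.

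**Figure D4:**
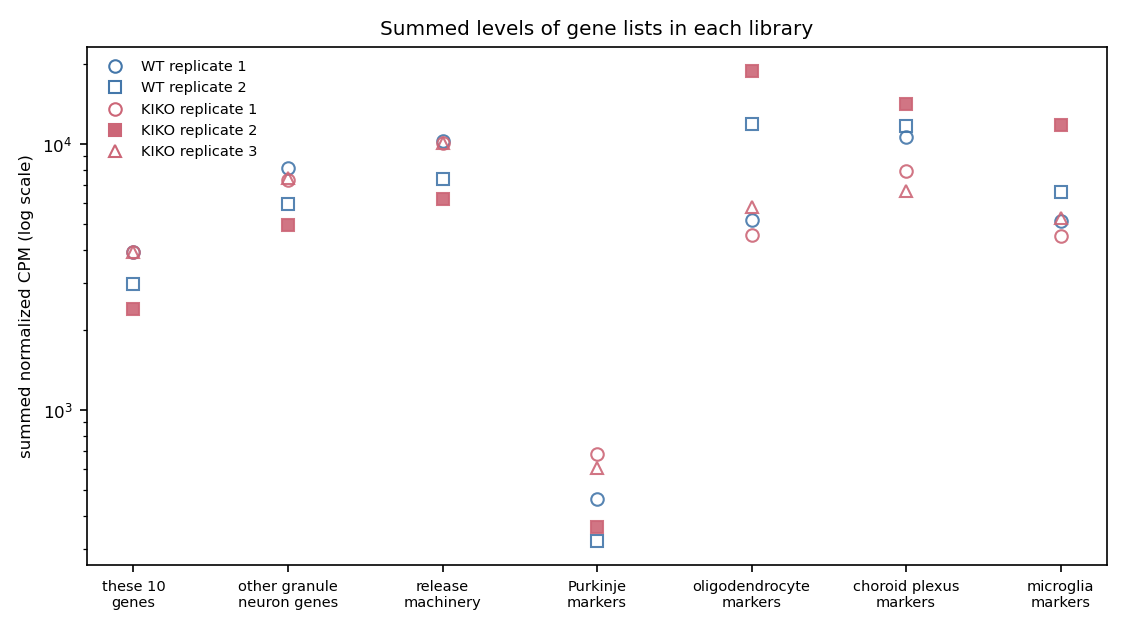
Summed normalized CPM of gene lists (vertical axis, log scale) in each library, with KIKO replicate 2 as the filled square. It is the lowest point for the 10 genes (2395) and the highest for the oligodendrocyte (18860), choroid plexus (14160) and microglia markers (11760).

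Markers of other neurons were summed in the same way. Those of Purkinje neurons (7 genes) were 462 and 321 normalized CPM in WT and 684, 363 and 607 in KIKO replicates 1, 2 and 3. Of their fold changes, 7 of 7 were above 0, where 51.9% of all genes tested were, and 0 passed both thresholds. Those of inhibitory neurons (5 genes, of which 4 were tested) were 42.8 and 53.1 in WT and 86.0, 124 and 67.0 in KIKO libraries, highest in KIKO replicate 2. The 4 fold changes were above 0, and 0 passed. Of 3 unipolar brush cell markers tested, 1 was above 0 and 2 below.

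As a description of the pattern over the 5 libraries, 3992 tested genes with a mean of at least 50 normalized CPM were compared with the mean centred log2 CPM of the 10 genes. The nearest were *Zfp91*, *Caln1*, *Snw1*, *Eprs* and *Ubap2l*, with a root mean square difference of 0.035 to 0.064 on the log2 scale. For the members themselves it was 0.20 (*Pax6*) to 1.22 (*Zic2*). The nearest genes were picked for the smallest difference and the members were not, so this contrast follows from the choice. *Caln1*, which encodes a neuronal calcium-binding protein, had 305 and 222 normalized CPM in WT and 312, 109.7 and 291 in KIKO replicates 1, 2 and 3.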

How the data were processed

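Gene counts (whole numbers), as deposited by the authors, were made with featureCounts from HISAT2 alignments to mm10 after Trimmomatic. The annotation, strand setting and handling of multi-mapped reads are not given in the sources used here. The deposited log2 values normalized by DESeq2 were not used. Also not used were 2 columns of the count table that are named for butyrate and match no sample label. Symbols, coordinates and exonic lengths came from GENCODE M21 (GRCm38, the build called mm10), and 99.86% of 31053 gene identifiers matched.

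The model was fitted to the counts with edgeR 4.0.16 (R 4.3.3). The filterByExpr filter (minimum count 10, minimum total 15) left 10889 genes, which were scaled by TMM and compared by the two-sided quasi-likelihood test, with Benjamini-Hochberg adjustment over all genes tested. The design assumed 3 WT samples, and 2 had a column. Intervals of 95% came from the fitted standard errors. Alternatives were DESeq2 1.42.0, limma 3.58.1 with trend, RLE factors, library size alone, other filters, the replicate number as a block and leaving out each library. The script was tested on simulated data. The members and lists were chosen with earlier results of these data known. Named genes were all members, the 3 most abundant genes of each context list (other granule neuron genes, release machinery, cerebellin partners), genes of these past both thresholds, and the 5 genes nearest to the members' mean profile. A gene that this rule names is not reported here. *Slc17a6*, *Cbln2*, *Cbln4*, *Napb*, *Syt5* and *Rims1* were named after their values were seen.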

Additional observations from a re-analysis of the deposited data

How the results depend on the processing

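With DESeq2's Wald test, limma with trend, RLE factors, library size alone, both other filters and the replicate block, 0 of the 10 genes passed both thresholds and 0 had an adjusted p under 0.05 (0 of 9 with at least 10 counts in every library, which removed *Zic2*). Across the fits that left out 1 library each, 0 to 1 passed, the 1 being *Syt1* without KIKO replicate 2. In the fits without a WT library, the lone WT library was assumed to vary like the KIKO libraries. Over all genes, 56 (without WT replicate 1) to 669 (without KIKO replicate 2) passed both thresholds and 0 to 5 the adjusted one in these fits. With all genes of at least 1 count, 383 passed both and 1 the adjusted threshold. In the release machinery, 0 to 2 genes passed when a library was left out. Of the calls over all genes, 59.5% were higher in KIKO under TMM, 70.6% under DESeq2, 68.6% under library size alone, 40.2% with the replicate block and 45.6% without KIKO replicate 2.

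Among the libraries analysed, only KIKO had a replicate 3, so with the replicate block that library did not enter the genotype contrast. The blocked contrast thus compared replicates 1 and 2 of both genotypes, with KIKO replicate 2 among them. In that fit, 271 of all genes and 2 of the release machinery (*Rims1* and *Pclo*) passed both thresholds. *Etv1* (−0.43) and *Syt1* (−0.16) changed sign, and *Slc17a7* moved to −1.46 (unadjusted p = 0.0679 in edgeR's test) and *Zic2* to −1.94 (limma: −0.94 and −1.37). Deviations of same-numbered libraries correlated at 0.18 and 0.239, and those of WT replicate 1 and KIKO replicate 3 at 0.218. With 2 WT libraries, the deviations of one mirror those of the other. Each KIKO library thus correlated with WT replicate 2 at the same size and opposite sign as with WT replicate 1. For this reason the values settle no pairing in either direction.

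Of 119 fold changes of the members under alternatives, 12 changed sign and 1 passed newly. With limma, *Etv1* was at −0.17. When 1 library was left out, the range was −0.27 to 0.54 for *Cbln1*, −0.066 to 0.62 for *Cbln3*, −0.27 to 0.41 for *Etv1*, −0.81 to 0.0063 for *Pax6*, −0.84 to 0.080 for *Slc17a7*, −0.092 to 0.21 for *Snap25*, 0.01 to 0.81 for *Syt1* and −1.05 to 0.057 for *Zic2*. *Neurod1* and *Zic1* stayed below 0 in all fits run. The causes were not tested.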
